A study of Mus musculus with 6 samples.

Results

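The Th2 cytokine genes Il4, Il5 and Il13, their lineage factor Gata3, the DNA repair gene Rad50 that lies between the cytokine genes, and the type 2-associated genes Il6 and Areg were followed in stimulated CD4+ T cells of young and old mice. These 7 genes, of 19977 in the expression table, were picked by name, with no measured value in the rule but with earlier results of these data known. The cells were isolated with flow cytometry from spleen and lymph nodes of wild-type C57BL/6 mice, aged 6 to 8 weeks (young) or 11 months (old), and kept for 6 hours with antibodies to CD3 and CD28, which mimic antigen and costimulation. There were 3 libraries per group, with totals of 16932551 to 18708205 estimated reads. No unstimulated cells were analysed here, and the labels do not say whether each library came from its own animal or from a pool, so p-values measure the spread between libraries.

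Th2 cells are helper T cells that act against worms and drive allergic inflammation. Gata3, a zinc-finger transcription factor, commits cells to this fate and opens the chromatin of a cluster in which Il4, Il13 and Il5 share control elements, some of which lie inside Rad50. Interleukin-4 promotes antibody class switching and further Th2 differentiation, interleukin-5 sustains eosinophils, and interleukin-13 acts on epithelium and smooth muscle. Interleukin-6 steers T-cell differentiation, and amphiregulin, the product of Areg, is an epidermal growth factor receptor ligand that aids tissue repair. A resting naive T cell makes little of these cytokines, whereas memory cells can transcribe them within hours of stimulation.

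In GRCm38, Il4 (gene 16189, chromosome 11, 53612460 to 53618665), Il13 (gene 16163, 53631323 to 53634702), Rad50 (gene 19360, 53649519 to 53707319) and Il5 (gene 16191, 53720794 to 53725103) follow each other within 113 kb. The gaps between their spans are 12.7, 14.8 and 13.5 kb. Gata3 (gene 14462) lies on chromosome 2 from 9857078 to 9887953, Il6 (gene 16193) on chromosome 5 from 30013114 to 30019975, and Areg (gene 11839) on the same chromosome from 91139599 to 91148432. The promoters of the 3 clustered cytokine genes are shown because these genes had every old library above every young one, and that of Areg because it was the only one of the 7 genes to pass the test. Gata3 and Il6 had every old library above every young one too. Their windows were examined but are not shown. Each run is the 250 bases before the RefSeq start in GRCm38.p6, 5′ to 3′ on the strand of the gene (Il4 and Il13 minus, Il5 and Areg plus).
Il4, chr11:53618666-53618915: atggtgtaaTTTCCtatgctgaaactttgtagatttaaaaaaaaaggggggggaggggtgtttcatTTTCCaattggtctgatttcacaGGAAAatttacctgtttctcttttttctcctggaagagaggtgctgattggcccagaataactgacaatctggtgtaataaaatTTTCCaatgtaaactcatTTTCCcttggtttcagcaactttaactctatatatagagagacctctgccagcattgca
Il13, chr11:53634703-53634952: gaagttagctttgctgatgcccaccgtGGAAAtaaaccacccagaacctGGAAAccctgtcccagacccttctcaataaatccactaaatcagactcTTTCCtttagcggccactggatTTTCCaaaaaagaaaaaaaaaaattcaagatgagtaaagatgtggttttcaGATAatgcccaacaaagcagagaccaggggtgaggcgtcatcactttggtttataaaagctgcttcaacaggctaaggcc
Il5, chr11:53720544-53720793: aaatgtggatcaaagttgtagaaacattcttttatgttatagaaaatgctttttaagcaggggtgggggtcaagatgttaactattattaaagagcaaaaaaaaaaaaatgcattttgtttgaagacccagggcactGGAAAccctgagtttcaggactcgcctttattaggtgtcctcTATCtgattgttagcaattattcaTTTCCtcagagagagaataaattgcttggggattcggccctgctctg
Areg, chr5:91139349-91139598: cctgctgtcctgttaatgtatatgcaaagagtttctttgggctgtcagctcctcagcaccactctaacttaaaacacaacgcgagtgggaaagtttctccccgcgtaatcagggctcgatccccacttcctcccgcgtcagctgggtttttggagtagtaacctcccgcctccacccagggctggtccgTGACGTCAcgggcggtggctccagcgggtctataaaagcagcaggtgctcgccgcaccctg
Capitals in the cytokine promoters mark GGAAA, the core that NFAT factors read, and GATA, the core of GATA factors, each on either strand. In Areg they mark TGACGTCA alone, the cyclic AMP response element.

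The Il4 window holds 5 NFAT cores and 0 GATA cores, that of Il13 holds 4 and 1, and that of Il5 holds 2 and 1. The Areg window holds 1 NFAT core, left unmarked, and 0 GATA cores. Among 32851 promoter windows of the same length, 55.6% hold at least 1 GGAAA and 53.6% at least 1 GATA. The letters TGCTGA, part of the site that MAF factors read, are found in 16.1% of windows. They occur 3 times in that of Il4, at 1 place in those of Il13, Gata3 and Areg, and at 0 in those of Il5 and Il6. The cyclic AMP element of Areg is rarer, since 1.55% of windows hold these letters. The AP-1 letters TGANTCA, found in 6.75% of windows, occur in the Il6 window and at 0 places in the other promoters examined (Il4, Il13, Il5, Gata3 and Areg). No matches of different motifs overlapped in these windows, and a match describes letters only.

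Il4, Il5, Il13, Gata3, Il6 and Areg were each higher in every old library than in every young one, while Rad50 overlapped between the groups. Areg alone passed the test across 10509 genes, in which 0.742% of genes were called higher and 0.875% were called in either direction. Old libraries all lay above young ones for 9.9% of the genes tested, and all below for 6.54%. Among the 4 genes whose young mean reached the filter level described next, 3 had every old library above every young one, as did 8.99% of 10321 such genes. Levels below are in CPM, counts scaled to a common library size with trimmed-mean (TMM) factors, and calls are at an adjusted p under 0.05. The filter, a mean over the 6 libraries of at least 1 FPKM (fragments per kilobase of transcript, scaled to library depth), kept all 7 genes. For Il5, Il6 and Areg the young mean was under that level, so these 3 passed it only through their old libraries. Il5, Il13, Gata3 and Areg were called by DESeq2, which called 4.77% of genes (3.56% higher), while limma on log2(FPKM + 1) called Areg alone of the 7, with 0.942% of genes called (0.79% higher). With no filter on low values, edgeR called 1.11% of genes (0.995% higher), among them Il5, Il13 and Areg. A log2 difference of at least 1 was reached by Il4 and Il13 and by 3.51% of genes tested. Il5, Il6 and Areg reached it too, but are not set against that share, since they passed the filter only through their old libraries. In bulk RNA, more cells that make a transcript and more of it per cell cannot be told apart.

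**Figure D1:**
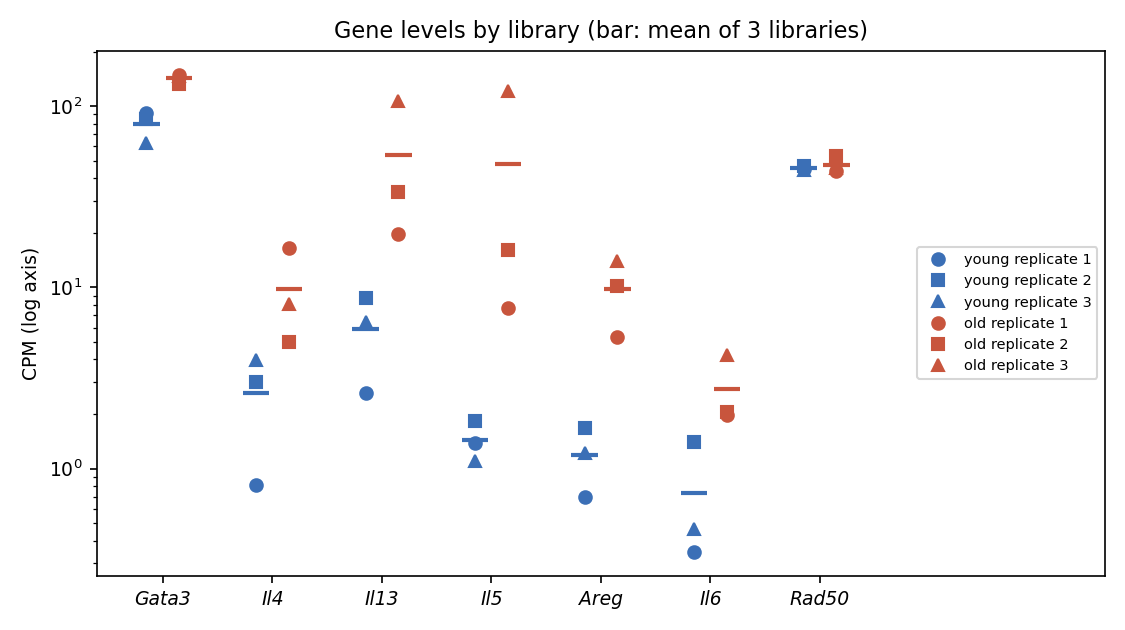
Level of each gene in CPM (log axis) in the 3 young and 3 old libraries, one symbol per library, with bars at group means. Every old library lies above every young one for all genes but Rad50, and Il5 in old replicate 3 (121 CPM) stands far above the other old libraries.

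Young replicate 1 stood apart from the other libraries of its group. Pearson's r of log2 levels over genes, which are not independent, was 0.927 and 0.914 between it and young replicates 2 and 3, and 0.982 between those. Without it 929 genes were called (8.84%), 616 of them higher (5.86%). Il4, Il13, Il6 and Areg had their lowest level of all libraries in young replicate 1, so their differences are also given without it.

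The clustered cytokine genes were low in young cells. Il4 stood at 0.81, 3.01 and 3.99 CPM in young replicates 1, 2 and 3 and at 16.4, 5.02 and 8.09 CPM in old replicates 1, 2 and 3. Old replicate 1 was the highest and young replicate 1 the lowest, and the lowest old library was 1.26-fold above the highest young one. The log2 difference of 1.92 ± 0.64 (SE, n = 3 per group) did not pass (edgeR quasi-likelihood, Benjamini-Hochberg adjusted p = 0.306). It was 1.49 without young replicate 1 and 1.33 without old replicate 1, and was called in neither fit.

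Il13 stood at 2.6, 8.76 and 6.41 CPM in young replicates 1, 2 and 3 and at 19.8, 33.4 and 107 CPM in old replicates 1, 2 and 3. Here old replicate 3 was the highest, and the lowest old library was 2.26-fold above the highest young one. The log2 difference was 3.17 ± 0.72 (SE, n = 3 per group; edgeR quasi-likelihood, Benjamini-Hochberg adjusted p = 0.116). Without young replicate 1 it was 2.81 and passed (Benjamini-Hochberg adjusted p of 0.0442 by edgeR). Without old replicate 3 it was 2.17, and it was not called.

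Il5 gave the largest difference of the 7 genes and the widest spread. Young replicates 1, 2 and 3 stood at 1.39, 1.83 and 1.1 CPM, from 24, 34 and 19 counts, and old replicates 1, 2 and 3 at 7.69, 16 and 121 CPM, from 141, 297 and 2211 counts. All old libraries lay above the young ones, the lowest by 4.21-fold, but old replicate 3 was 15.7-fold above old replicate 1. The log2 difference of 5.06 ± 1.1 (SE, n = 3 per group) did not pass (edgeR quasi-likelihood, Benjamini-Hochberg adjusted p = 0.102). It was 3.04 without old replicate 3, not called, and the largest shift that leaving out 1 library gave among the 7 genes.

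The gene between the cytokine genes had no such difference, as the plot along the chromosome shows. Rad50, which encodes the coiled-coil ATPase of a double-strand break sensing complex, stood at 45.3, 46.8 and 44.5 CPM in young replicates 1, 2 and 3 and at 43.6, 52.9 and 45.7 CPM in old ones. Its groups overlapped, with a difference of 0.06 ± 0.15 in log2 (SE, n = 3 per group) and a Benjamini-Hochberg adjusted p of 0.956 by edgeR. Kif3a, a kinesin gene on the far side of Il4, had a log2 difference of -1 ± 0.57 (Benjamini-Hochberg adjusted p of 0.635 by edgeR), which became -0.01 without young replicate 1, where it stood at 29.8 CPM against 6.01 to 9.17 CPM in the others. Irf1, an interferon-responsive transcription factor on the far side of Il5, stood at 511 ± 91.1 CPM in old and 575 ± 129 CPM in young libraries (SD, n = 3 each).

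Of 18 listed genes beside the cluster, 17 were in the table and 11 passed the filter, with 0 called in edgeR (2 higher and 1 lower at an unadjusted p under 0.05, and 1 higher and 1 lower in DESeq2). Over all genes tested, 6.69% were higher and 3.96% lower at that unadjusted p. The median log2 difference of the 11 genes was -0.01, against -0.03 over all genes tested. Septin8, Hspa4, Zcchc10, Uqcrq and Aff4 had log2 differences between -0.02 and 0.16. Slc22a5, a carnitine transporter, had 0.61 ± 0.22 and Pdlim4 -1.88 ± 0.54 (SE, n = 3 per group). Farther along the same chromosome lie the cytokine genes Csf2, at 3.61 ± 0.91 on the log2 scale, and Il3, at 1.32 ± 1 (SE, n = 3 per group). Neither passed, with Benjamini-Hochberg adjusted p of 0.157 and 0.758 by edgeR.

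**Figure D2:**
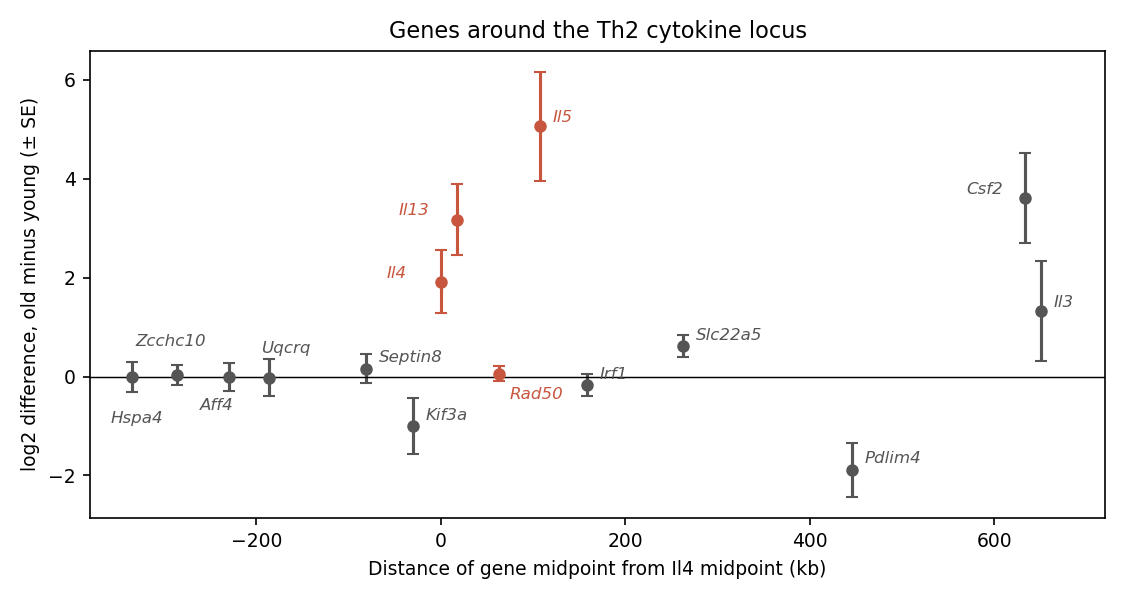
log2 difference (old minus young, ± SE, n = 3 per group) of each tested gene against the distance of its midpoint from that of Il4 in kb, with the chosen genes in red. Il4, Il13 and Il5 lie between 1.92 and 5.06 while Rad50 between them lies at 0.06.

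The 3 cytokine genes of the cluster did not keep a fixed proportion to each other. Il13 over Il4, as a ratio of FPKM within a library, was 0.567 in old replicate 1, 3.12 in old replicate 2 and 6.23 in old replicate 3. Young replicates 1, 2 and 3 had 1.51, 1.37 and 0.757, inside the range of the old libraries. Il5 over Il4 ran from 0.172 in old replicate 1 through 1.17 in old replicate 2 to 5.48 in old replicate 3, against 0.628, 0.223 and 0.101 in young replicates 1, 2 and 3. Old replicate 1 thus held the most Il4 and the least Il5 and Il13 of the old libraries. Il5 over Il13 was 0.303, 0.375 and 0.88 in old replicates 1, 2 and 3 and 0.417, 0.163 and 0.134 in young ones, and these groups overlapped too.

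**Figure D3:**
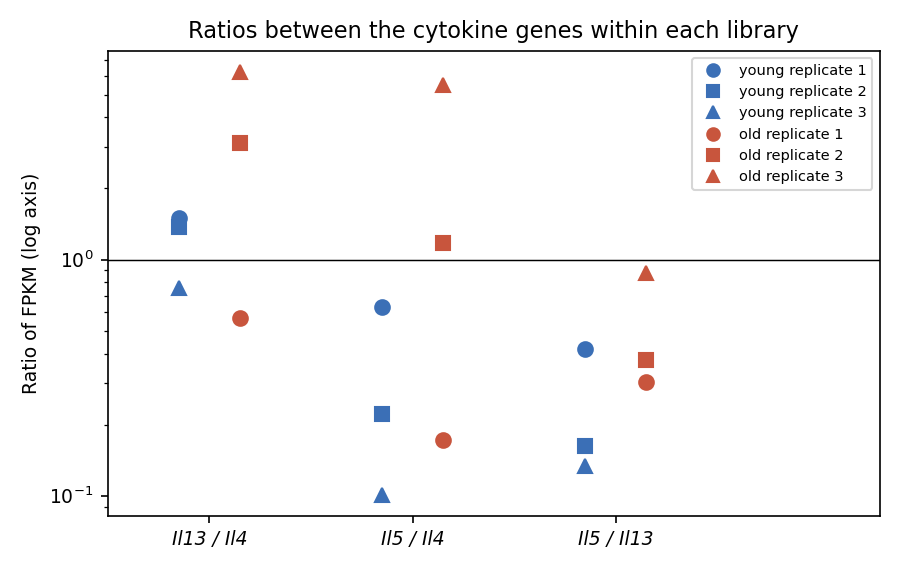
Ratio of FPKM between pairs of cytokine genes (log axis) within each library, young in blue and old in red, with a line at 1. Old replicate 3 has the highest value of each ratio, up to 6.23 for Il13 over Il4, and old replicate 1 the lowest among old libraries.

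Spread among the old libraries was wide for the cytokines and narrower for Gata3 and Rad50. The SD of log2(CPM + 1) over the 3 old libraries was 1.98 for Il5, 1.22 for Il13 and 0.77 for Il4, where the median over all genes tested was 0.15. Those of Il13 and Il4 lie at percentiles 99.6 and 98.7 of all genes tested. Among genes within 1.5-fold of the same mean level over the 6 libraries, they lie at percentiles 99.7 and 95.9. Areg had an SD of 0.63 and Il6 of 0.46. Il5, Areg and Il6 are not ranked among the genes tested, since they passed the filter only through their old libraries. Gata3 had an SD of 0.1 (percentile 27.5 of all genes, 34.7 of genes of like level) and Rad50 of 0.14 (percentiles 48.9 and 57.7), near the median. On this scale the young SDs were 0.77 for Il4, 0.45 for Il6, 0.74 for Il13, 0.33 for Areg and 0.22 for Il5. The median young SD over all genes tested was 0.33. The added 1 narrows the spread of low levels, such as those of these genes in young libraries. In CPM the highest young library was 4.92-fold (Il4), 4.02-fold (Il6), 3.36-fold (Il13), 2.4-fold (Areg) and 1.66-fold (Il5) the lowest. Among old libraries these folds were 3.27, 2.14, 5.42, 2.63 and 15.7. Exact 95% Poisson intervals for the Il5 counts were 119 to 166, 264 to 333 and 2120 to 2305 in old replicates 1, 2 and 3, without overlap, and such intervals cover counting error only.

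Gata3 was expressed in all libraries, with a mean in old ones 1.79-fold that in young ones. It stood at 92.2, 84.7 and 62.4 CPM in young replicates 1, 2 and 3 and at 149, 132 and 147 CPM in old ones. The lowest old library was 1.43-fold above the highest young one. The log2 difference of 0.84 ± 0.19 (SE, n = 3 per group) did not pass (edgeR quasi-likelihood, Benjamini-Hochberg adjusted p = 0.108). Without young replicate 1 it was 0.96, and passed (Benjamini-Hochberg adjusted p of 0.0134 by edgeR).

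Of the 3 Gata3 transcripts in the table, 1 had no overlap between the groups. NM_008091.3 stood at 18.3, 13.9 and 10.3 FPKM in young replicates 1, 2 and 3 and at 33, 33 and 36.2 FPKM in old ones. XM_006497355.3, a predicted transcript, stood at 8.57 ± 2.07 FPKM in young and 8.41 ± 3.33 FPKM in old libraries (SD, n = 3 each). NM_008091.3 took 57.4% ± 5.04 of the Gata3 counts in young and 77.5% ± 5.71 in old libraries (SD, n = 3 each), without overlap (at most 63.1% against at least 71%). An exact permutation test (two-sided, n = 3 per group) gave p = 0.1, the smallest this design allows. Groups that do not overlap always give this value, so the test adds nothing to the lack of overlap. On its own, NM_008091.3 differed by 1.26 ± 0.21 in log2 (edgeR quasi-likelihood, Benjamini-Hochberg adjusted p = 0.0506), and the other transcripts together differed by -0.06 ± 0.25 in log2 (SE, n = 3 per group). These shares are model estimates from reads that fit several transcripts, and the Gata3 span also overlaps 4930412O13Rik and 9230102O04Rik in the gene table. With no strand setting given, reads from such overlaps cannot be told apart.

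**Figure D4:**
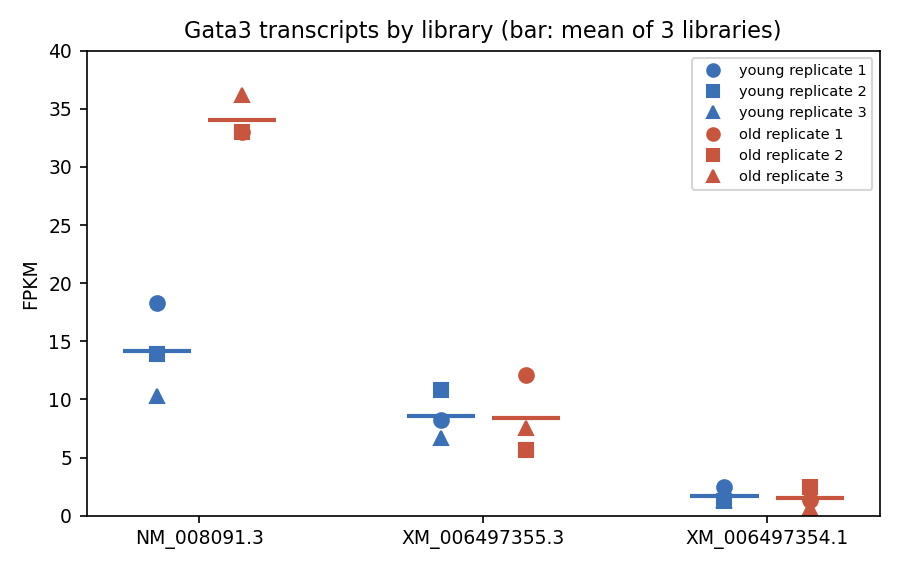
FPKM of the 3 Gata3 transcripts in each library, with bars at group means. NM_008091.3 reaches at most 18.3 FPKM in young libraries and at least 33 in old ones, while the points of the other transcripts overlap between groups.

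Areg rose in old libraries. Young replicates 1, 2 and 3 stood at 0.694, 1.67 and 1.21 CPM and old replicates 1, 2 and 3 at 5.35, 10.2 and 14 CPM, the lowest old library 3.21-fold above the highest young one. The log2 difference was 3.04 ± 0.48 (SE, n = 3 per group; edgeR quasi-likelihood, Benjamini-Hochberg adjusted p = 0.0428). It stayed between 2.69 and 3.36 whichever library was left out. The call ended when any library other than young replicate 1 was left out, with adjusted p of 0.11 and 0.19 without young replicates 2 and 3, and of 0.0664, 0.22 and 0.138 without old replicates 1, 2 and 3 (edgeR). Without young replicate 1 the adjusted p was 0.0135 in that edgeR test.

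Of 13 listed genes for the release of amphiregulin, its receptors and related ligands, 5 passed the filter, and 0 were called in edgeR (2 higher at an unadjusted p under 0.05, 1 in DESeq2). Over all genes tested, 6.69% were higher at that unadjusted p and DESeq2 called 3.56% higher. The median log2 difference of the 5 listed genes was 0.23. Hbegf, another ligand of the epidermal growth factor receptor, stood at 6.85 ± 5.38 CPM in old and 1.64 ± 0.986 CPM in young libraries (SD, n = 3 each). It passed the filter only through its old libraries, and the median log2 difference over the other 4 genes was 0.21. Rhbdf2, a partner of the sheddase Adam17, stood at 48.8 ± 12.6 against 28.4 ± 1.79 CPM (SD, n = 3 each). Adam17 itself, at 78.4 ± 2.12 against 68.7 ± 2.42 CPM, and Adam10, at 177 ± 13.2 against 151 ± 17.2 CPM (SD, n = 3 each), were not called. The receptor gene Egfr was below the filter, at 2.54 CPM in old and 1.91 CPM in young libraries.

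Il6 was the scarcest of the genes. It had 6, 26 and 8 counts in young replicates 1, 2 and 3 and 36, 38 and 77 counts in old ones, or 0.347, 1.4 and 0.462 CPM against 1.96, 2.05 and 4.21 CPM. Every old library was higher, yet the Poisson interval of young replicate 2, 17 to 38.1 counts, reaches those of old replicates 1 and 2 (25.2 to 49.8 and 26.9 to 52.2). The log2 difference of 1.88 ± 0.6 (SE, n = 3 per group) did not pass (edgeR quasi-likelihood, Benjamini-Hochberg adjusted p = 0.281). It was 2.73 without young replicate 2, 1.54 without young replicate 1 and 1.43 without old replicate 3. All 6 counts of young replicate 1 were assigned to NM_001314054.1, a transcript listed at 0 in the other libraries, and the Il6 span overlaps A230098N10Rik.

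**Figure D5:**
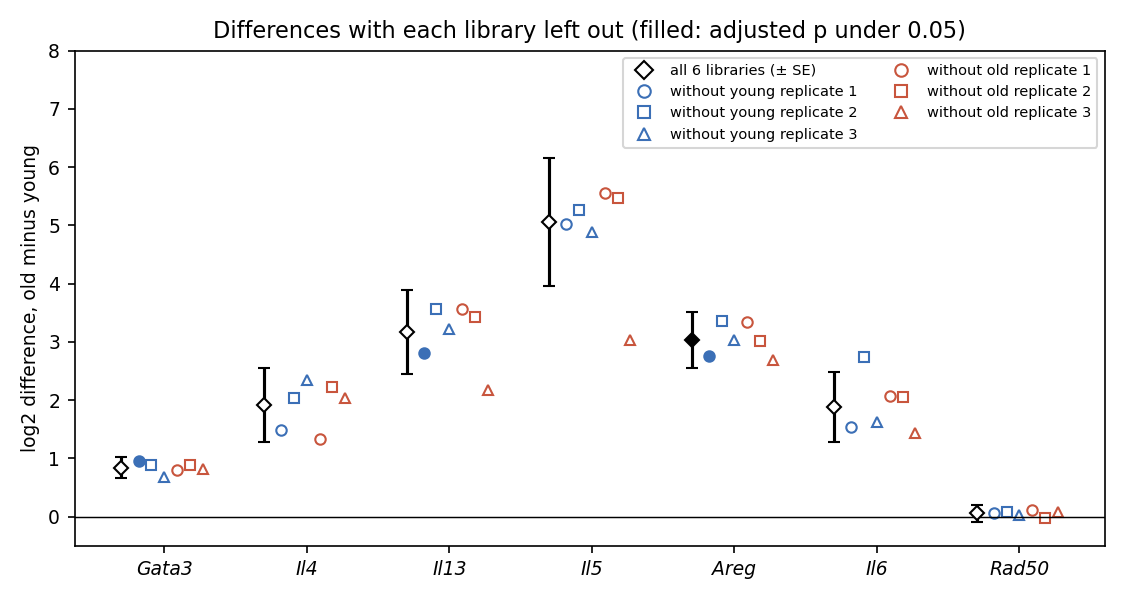
log2 difference (old minus young) of each gene with all 6 libraries (diamond, ± SE) and with each library left out in turn, filled where the adjusted p was under 0.05. Il5 moves from 5.06 to 3.04 without old replicate 3, and Areg keeps values of 2.69 to 3.36.

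Levels of different genes are compared per length, in FPKM. In young libraries Gata3 led at 24.4 ± 5.44 FPKM, above Rad50 at 8.66 ± 0.423 FPKM. Il13 (4.9 ± 2.55 FPKM) and Il4 (4.55 ± 2.76 FPKM) differed by less than their spread, as did Areg (0.98 ± 0.395 FPKM), Il5 (0.937 ± 0.25 FPKM) and Il6 (0.65 ± 0.503 FPKM; SD, n = 3 each). In old libraries Il13 (44.3 ± 38.2 FPKM), Gata3 (44 ± 2.65 FPKM), Il5 (31 ± 40.2 FPKM) and Il4 (17.6 ± 10.7 FPKM) came first. Rad50 (9.09 ± 1.02 FPKM) and Areg (8.15 ± 3.49 FPKM) followed, and Il6 (2.42 ± 1.07 FPKM) was last (SD, n = 3 each). From Il13 down to Areg, each gene differed from the next by less than the larger of their SDs.

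The genes nearest in pattern to Il4 were not those nearest to Il5 and Il13. Likeness was the root mean square difference of log2(CPM + 1), each gene centred on its own mean over the 6 libraries, so smaller values are closer. Il5 and Il13 had the same closest genes, Csf2, the gene of a myeloid growth factor (0.46 and 0.34), and Ccl1, a chemokine gene (0.62 and 0.39). Next came the Th17 cytokine gene Il17f for Il5 (0.75) and the Th1 cytokine gene Ifng for Il13 (0.4). All 4 of these genes were highest in old replicate 3, with 138, 116, 111 and 301 CPM for Csf2, Ccl1, Il17f and Ifng. Since likeness was taken over the same 6 libraries, sharing the highest library follows largely from the choice.

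Il4 was closest to Jchain, the joining chain of polymeric antibodies (0.3), Cnih2 (0.37) and Ccl6 (0.4). Each was highest in old replicate 1, which again follows largely from the choice by likeness. Jchain stood at 15.3, 4.86 and 12.9 CPM in old replicates 1, 2 and 3. Gata3 was closest to Lgals1 (0.06), Myadm (0.08) and Plekho2 (0.09), Il6 to Ier3 (0.12), Gpr18 (0.12) and Clec7a (0.14), and Areg to Tgm2 (0.18), Penk (0.2) and Sytl3 (0.23).

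Il10, an anti-inflammatory cytokine gene, and Ccl1 rose among other cytokine and chemokine genes linked to Th2 cells. Of 9 listed, 7 passed the filter and edgeR called 2 higher, where it called 0.742% of all genes tested higher. The median log2 difference was 2.97, or 2.06 without old replicate 3. Il9 and Il3 passed the filter only through their old libraries, and the median over the other 5 was 2.97 as well. Ccl1 stood at 64.3 ± 45.1 CPM in old and 5.37 ± 1.6 CPM in young libraries (SD, n = 3 each). Il9, a mast cell growth factor gene, stood at 2.05 ± 1.72 CPM in old and 0.146 ± 0.163 CPM in young libraries (SD, n = 3 each), and was called by DESeq2 (adjusted p = 0.0354) but not by edgeR. DESeq2 called 4 genes of the list, all higher and Il9 among them, and 3.56% of all genes tested higher. Among 10 surface receptors of Th2 cells, 7 passed the filter, all with positive differences (median 1.08), and edgeR called 1 of them, the interleukin-33 receptor gene Il1rl1. Its level was 20.6 ± 1.11 CPM in old and 5.62 ± 1.2 CPM in young libraries (SD, n = 3 each). The median log2 difference over all genes tested was -0.03. Il17rb, Ptgdr2 and Ccr3 were below the filter, with means of 0.996, 0.272 and 0.272 CPM in old and 0.755, 0.152 and 0.0744 CPM in young libraries. Il18r1 overlapped between the groups, with 37 CPM in young replicate 1 above the 30.2, 29.6 and 31.9 CPM of old replicates 1, 2 and 3. Without young replicate 1, edgeR called 4 of the 10 receptors, among them the costimulatory receptors Icos and Tnfrsf4. In that fit 5.86% of all genes tested were called higher. Ccr8, a chemokine receptor, stood at 52.8 ± 4.73 against 24.9 ± 10.2 CPM (SD, n = 3 each), with no call in either of these fits but one by DESeq2 (adjusted p = 0.021), which called 4 receptors.

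Transcription factors of the Th2 program were mixed. Of 18 that favour Gata3 or the Th2 cytokine genes, 16 passed the filter (median log2 difference 0.64), of which edgeR called 2 higher and 1 lower. Maf, which binds the Il4 promoter, stood at 153 ± 13.7 CPM in old and 36 ± 10.4 CPM in young libraries, and Batf, a partner of Irf4, at 126 ± 18.1 against 43.6 ± 5.93 CPM (SD, n = 3 each). Myb, a factor of progenitors and memory cells, fell from 210 ± 12.4 to 92.7 ± 17.7 CPM (SD, n = 3 each). Junb stood at 650 ± 88.7 against 326 ± 66.5 CPM (SD, n = 3 each) and was called by DESeq2 (adjusted p = 0.000825) but not by edgeR. DESeq2 called 6 genes of the list higher and 1 lower, and edgeR without young replicate 1 called 7 higher and 1 lower. Over all genes tested, edgeR called 0.875% (0.742% higher), or 8.84% (5.86% higher) without young replicate 1. DESeq2 called 4.77% (3.56% higher).

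Of 14 genes that restrain Gata3 or the Th2 cytokine genes, 13 passed the filter (median log2 difference 0.13), of which edgeR called 0 higher and 1 lower. Positive differences were held by 9 of the 13. Sox4, which blocks Gata3 from binding DNA, fell from 33.1 ± 7.8 to 4 ± 1.11 CPM (SD, n = 3 each). Eomes, a T-box factor, stood at 32.5 ± 3.99 CPM in old and 82 ± 29.8 CPM in young libraries, and Runx3, a repressor of Il4, at 90.9 ± 3.2 against 64.8 ± 12.2 CPM (SD, n = 3 each). Lef1 stood at 161 ± 9.39 against 360 ± 275 CPM (SD, n = 3 each). Tbx21, another T-box factor, stood at 22.3, 124 and 125 CPM in young replicates 1, 2 and 3. In old replicates 1, 2 and 3 it stood at 180, 203 and 262 CPM. edgeR called none of Eomes, Runx3, Lef1 and Tbx21 with all libraries. DESeq2 called Eomes (adjusted p = 0.00193), with 0 genes of the list higher and 2 lower. Without young replicate 1, edgeR called 3 genes higher (Runx3, Tbx21 and Bcl6) and 2 lower (Sox4 and Eomes). Over all genes tested, DESeq2 called 4.77% (3.56% higher), and edgeR without young replicate 1 called 8.84% (5.86% higher). The log2 difference of Lef1 went from -1.16 to -0.32 in that fit.

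Receptors and kinases of the cytokines themselves gave no call by edgeR with all libraries. Of 16 genes, 14 passed the filter, with a median log2 difference of 0.03 and 0 calls in edgeR (2 higher at an unadjusted p under 0.05, 2 in DESeq2, 3 higher without young replicate 1). Over all genes tested, 6.69% were higher at that unadjusted p. DESeq2 called 3.56% of them higher, and edgeR without young replicate 1 called 5.86% higher. Stat3, the main factor downstream of interleukin-6, stood at 463 ± 29 CPM in old and 296 ± 46.9 CPM in young libraries, and the kinase gene Jak3 at 293 ± 22.3 against 197 ± 25.9 CPM (SD, n = 3 each). Il4ra, the receptor chain for interleukin-4 and interleukin-13, stood at 398 ± 32 against 518 ± 153 CPM, and Csf2rb, the signalling chain shared with the interleukin-5 receptor, at 6.7 ± 1.59 against 5.04 ± 1.58 CPM (SD, n = 3 each).

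Rad50 partners and other genes of break sensing gave no call by edgeR or DESeq2 with all libraries. All 14 listed genes passed the filter, with a median log2 difference of -0.09 and 0 calls in edgeR (1 higher and 2 lower at an unadjusted p under 0.05, 0 in DESeq2, 1 lower without young replicate 1). Over all genes tested, 6.69% were higher and 3.96% lower at that unadjusted p. DESeq2 called 4.77% of them, and edgeR without young replicate 1 called 8.84%. Nbn, a partner in the same complex, stood at 57.9 ± 4.23 CPM in old and 46.1 ± 0.687 CPM in young libraries, and the other partner, Mre11a, at 58.3 ± 3.7 against 60 ± 11.9 CPM (SD, n = 3 each). The histone gene H2ax stood at 55.2 ± 1.38 against 74.7 ± 13.4 CPM, the kinase gene Chek2 at 13.1 ± 3.61 against 22.4 ± 8.68 CPM and the ubiquitin ligase gene Rnf8 at 23 ± 0.282 against 28.1 ± 5.29 CPM (SD, n = 3 each).

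Markers of the sorted cells and of other cells that make these cytokines were summed per library. CD4 T-cell markers totalled 3970 to 4558 CPM in young and 4631 to 5347 CPM in old libraries, and CD8 markers 16.6 to 27.5 and 11.3 to 14.6 CPM. Markers of mast cells and basophils, which also make interleukin-4, totalled 9.07 to 17.5 CPM in young and 8.26 to 12.5 CPM in old libraries. Eosinophil markers totalled 0.0578 to 1.02 and 0.216 to 1.31 CPM, and those of innate lymphoid cells of type 2, a source of interleukin-5 and amphiregulin, 1.16 to 4.4 and 3.55 to 4.53 CPM. Within that last list, Klrg1 stood at 1.97, 0.591 and 0.404 CPM in young and 2.78, 1.4 and 2.19 CPM in old replicates 1, 2 and 3. It alone of the list passed the filter, and only through its old libraries. Calca stood at no more than 0.0579 CPM in young and 0.594 CPM in old libraries, and Nmur1 at 0 in all libraries but young replicate 1 (0.0579 CPM). Arg1 ran the other way, with means of 0.616 CPM in young and 0.181 CPM in old libraries. Hes1 had means of 0.242 and 0.236 CPM, and Il17rb of 0.755 and 0.996 CPM. In old replicate 3, where Il5 and Il13 were highest, the mast cell, eosinophil and innate lymphoid sums were 10.2, 0.492 and 3.55 CPM, none of them the highest among old libraries, while the natural killer T-cell and dendritic cell sums, 369 and 71.7 CPM, were the highest of all 6 libraries.

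The remaining marker lists were those of natural killer T cells, B cells, macrophages, dendritic cells and neutrophils. Natural killer T-cell markers totalled 89 to 254 CPM in young and 250.3 to 369 CPM in old libraries, most of it from Slamf1, which other T cells express too. In old replicate 1, where Il4 was highest, that sum was the lowest of the old libraries, as were Slamf1, Klrk1 and Ncr1, while Zbtb16, the lineage factor of these cells, was highest there at 8.02 CPM, against 2.43 and 2.19 CPM in old replicates 2 and 3. B-cell markers totalled 14.8 to 39.9 and 17.3 to 28 CPM, those of macrophages 16.6 to 24 and 14.4 to 19.8 CPM, and those of dendritic cells 43.2 to 56.3 and 45.2 to 71.7 CPM. Neutrophil markers totalled 40.8 to 105 CPM in young and 13.3 to 40.9 CPM in old libraries, with old replicate 1 (40.92 CPM) just above young replicate 2 (40.79 CPM). CD8 markers, given above, were lower in every old library than in every young one. The part of any of these cell types in the differences above was not tested. Over all 10 marker lists, 32 genes passed the filter and 0 were called in edgeR. At an unadjusted p under 0.05 in edgeR, 3 were higher and 7 lower, against 6.69% and 3.96% of all genes tested. Of those 7 lower genes, 5 were neutrophil markers. DESeq2 called 2 higher and 3 lower, and 4.77% of all genes tested.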

How the data were processed

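RNA-seq of 3 young and 3 old CD4+ T-cell samples was used. The authors deposited 1 table of 66712 RefSeq transcripts holding expected counts and FPKM for each sample, per the file headers. The submitters' processing notes name Bowtie, RSEM and the build GRCm38 (mm10). Tool versions and the strand setting were not given in the sources used. Counts and FPKM were summed per Entrez gene; 19830 of 19977 genes had a symbol in the RefSeq table, and the others held 0.121% to 0.211% of each total. Gene sums were rounded and tested with edgeR 4.0.16 in R 4.3.3 (quasi-likelihood, TMM factors, mean FPKM of at least 1), adjusted by Benjamini-Hochberg over 10509 genes, and the code was checked on simulated data. SE values are log2 differences over the root of the quasi-likelihood F. DESeq2 1.42.0 and limma 3.58.1 were alternatives. Each list's genes with the smallest p were named, up to 4, as were the 3 genes nearest in pattern to each of 6 genes. The Gata3 transcript fits, the marker genes named singly, the list medians by young level and the Areg promoter motif were picked after values were seen. So were Egfr, Mre11a, Tbx21, Bcl6, Il18r1 and the named Th2 receptors below the filter. Members and lists were chosen with earlier results of these data known. All pairs of libraries differed by more than sampling noise (chi-square per degree of freedom of at least 21.6). Promoter sequences are from RefSeq (GRCm38.p6), in which 6 of the 7 genes matched. Figures were drawn with matplotlib 3.10.9.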

Additional observations from a re-analysis of the deposited data

How the results depend on the processing

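All differences but that of Rad50 kept their sign under every alternative run with the gene's counts whole; Rad50 changed sign without old replicate 2 (log2 difference -0.027), and the Gata3 transcripts other than NM_008091.3 had a log2 difference of -0.061. With no filter, 203 genes were called, and Il5 (log2 difference 5.1, adjusted p = 0.0339) and Il13 (3.19, 0.0462) passed in edgeR's quasi-likelihood test. A mean FPKM of at least 5 left 55 calls among fewer genes and removed Il6 and Areg. DESeq2 called 501 genes (4.77%), with Il5 (5.06, adjusted p = 0.000288), Il13 (3.16, 7.71e-05) and Gata3 (0.83, 0.00193) among them. Leaving out each library gave 0 to 929 calls, -0.027 to 0.12 for Rad50, 0.68 to 0.96 for Gata3, 2.17 to 3.57 for Il13 and 2.69 to 3.36 for Areg. The 0 calls came without young replicate 2 and without old replicate 2, where edgeR's quasi-likelihood test had 1296 and 688 genes at an unadjusted p under 0.05. With the replicate number as a block, 119 genes were called and Il13 passed (2.97, adjusted p = 0.0306 in edgeR), while no other call among the 7 genes changed. RLE factors, library totals, robust edgeR and limma with pseudocounts of 1 and 0.1 gave 82 to 99 calls, with Areg called and the other 6 genes not called in each. The replicate numbers were not taken as pairs because the labels do not say that they pair animals. Deviations of same-numbered libraries correlated at 0.232, -0.025 and 0.209, and those of differently numbered ones at -0.348 to 0.36. Depth limits Il6 most, with 6 to 77 counts. The cause of these changes was not tested.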
